A study of Mus musculus with 8 samples.

Results

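Transcripts of 36 genes of glycolysis and gluconeogenesis were examined in RNA sequencing of mouse intestinal epithelial cells. The genes were taken by name from a list covering the glycolytic enzymes, the enzymes that set fructose-2,6-bisphosphate, pyruvate dehydrogenase and its kinases, lactate carriers and the gluconeogenic enzymes. They occupied 37 of the 54139 rows of the deposited tables, since 2 neighbouring loci carry the name Aldoa. The libraries came from 4 samples labelled cKO (floxed Rictor with Villin-Cre) and 4 labelled WT, whose genotype label names Villin-Cre and no floxed allele. Villin-Cre drives recombination in the intestinal epithelium, and both groups carry it, so that other cells in a preparation keep Rictor. The strain, age, sex and gut segment, and whether each library is a separate animal, are not stated in the sources used here, so the p-values measure only the spread between these samples.

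Glycolysis splits glucose into pyruvate in the cytosol, and gluconeogenesis runs the same road backwards around its irreversible steps with enzymes of its own. Most steps are catalysed by several isoenzymes, encoded by separate genes that differ in tissue and regulation. Absorptive cells of the small intestine handle dietary glucose and fructose, release lactate, and, in rodents, carry gluconeogenic enzymes otherwise known from liver and kidney. Rictor, the defining subunit of mTOR complex 2, supports activation of the kinase Akt, which in liver represses gluconeogenic genes through FoxO factors.

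Total counts ran from 15110451 to 18351748 in cKO and from 15982538 to 18708335 in WT libraries. The 36 genes took 0.669% to 0.839% of them in cKO and 0.665% to 0.739% in WT. All 15 enterocyte markers were tested, whereas 9 markers of fibroblasts and smooth muscle summed to 2.05 to 2.78 CPM (counts scaled to equal library size) in cKO and 0.954 to 2.04 CPM in WT. Rictor had 1.77, 2.30, 1.22 and 2.38 FPKM, a unit scaled by gene length and library depth, in cKO libraries 1 to 4. It had 2.44, 2.48, 3.35 and 2.999 FPKM in the WT libraries. Every cKO library lay below every WT library, with a log2 fold change of -0.55 ± 0.20 (standard error, SE) and an edgeR p of 0.0190 before and 0.921 after Benjamini-Hochberg adjustment. Its counts include exons outside a deletion. Library 3 of cKO stood apart, with 33.6% of its deviations from the gene means following transcript length and GC content, against 0.638% to 5.2% in the other 7 libraries.

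Levels are given in FPKM as mean ± SD over 4 libraries unless single values are given. FPKM is scaled by the deposited gene length, for example 13401 bases for the phosphofructokinase gene Pfkp and 3340 for Pfkm. Comparisons between genes, and the isoenzyme shares below, therefore depend on those lengths. The transcripts spanned a wide range. Lactate dehydrogenase A (Ldha) was the most abundant of the 36, at 406 ± 86.4 FPKM in cKO and 397 ± 36.5 FPKM in WT. Triosephosphate isomerase (Tpi1), pyruvate kinase M (Pkm), phosphoglycerate kinase 1 (Pgk1) and fructose-1,6-bisphosphatase 2 (Fbp2) averaged between 159 and 233 FPKM in either group. At the other end, enolase 2 (Eno2), the neuronal form, had 10 reads in all 8 libraries together, and lactate dehydrogenase B (Ldhb), the heart form, had 67. Those genes were too low for the test, and the other 34 passed its filter on low counts with 35 rows.

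**Figure D1:**
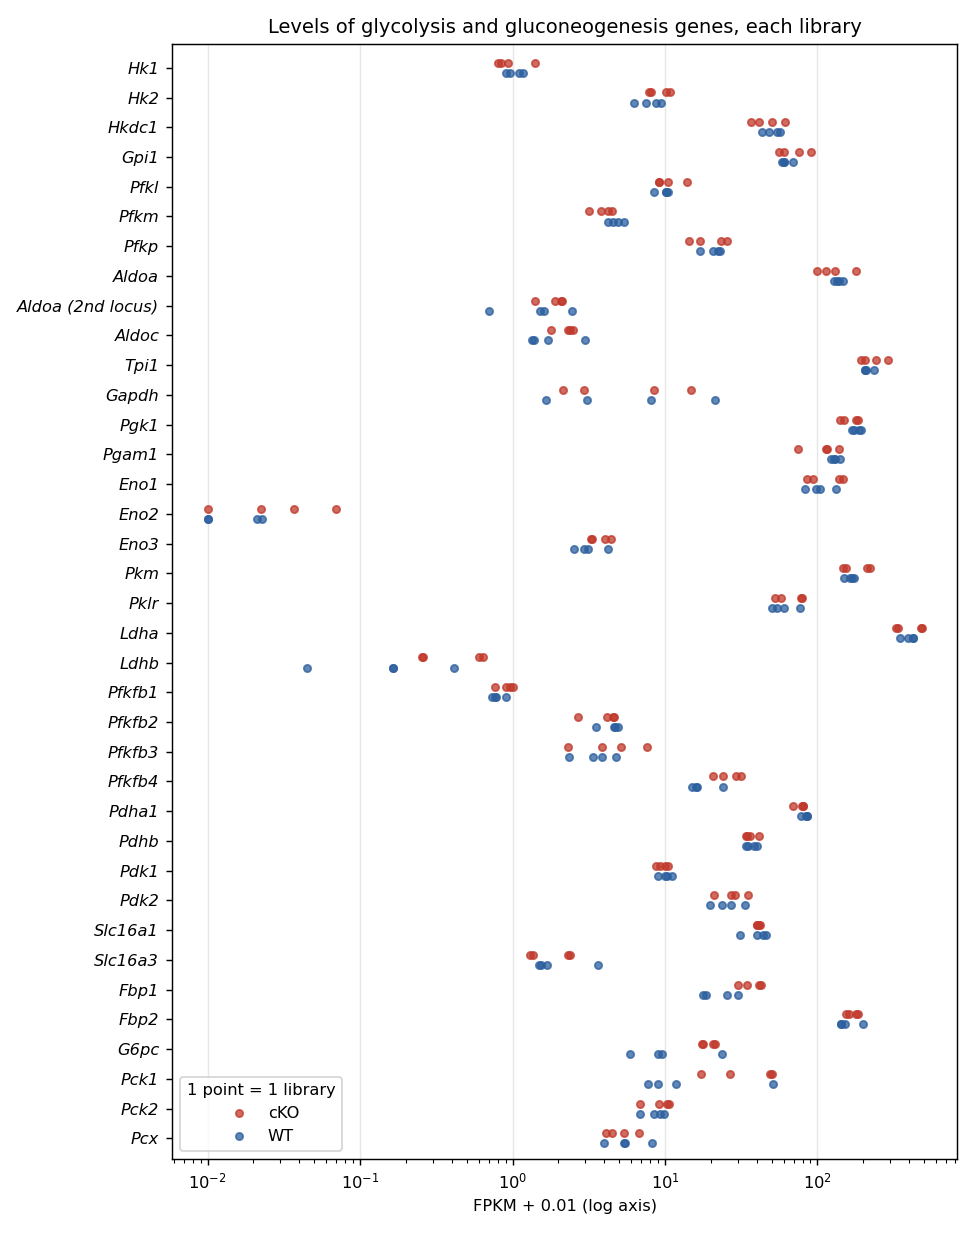
FPKM + 0.01 on a log axis for the 37 rows of the 36 genes, with 1 point for each of the 4 cKO (red, upper) and 4 WT (blue, lower) libraries. The cKO and WT points overlap for every tested row, from 0.688 FPKM at the second Aldoa locus to 483 FPKM for Ldha.

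To show the start regions of a pair of isoenzymes whose balance did not overlap between genotypes, and of a pair far apart in level, the 300 bases from 250 before to 50 after the start are printed for Fbp2 and Fbp1, for Ldha and Ldhb, and for Pfkfb4, the transcript with the second smallest p. They are RefSeq sequences on GRCm38.p6, written 5′ to 3′ on the gene's strand, with the window nearest the deposited gene start taken where a gene has more than 1. For Ldha, with 2 windows, that start lies 4329 bases away. Capitals mark ACGTG, the core that hypoxia-inducible factors bind, and CACGTG, the E-box, on either strand, which overlap wherever the E-box occurs. Fbp2 is at chr13:62858351-62858650 (minus strand), Fbp1 at chr13:62888233-62888532 (minus), Ldha at chr7:46845554-46845853 (plus), Ldhb at chr6:142507908-142508207 (minus) and Pfkfb4 at chr9:108991652-108991951 (plus).
Fbp2: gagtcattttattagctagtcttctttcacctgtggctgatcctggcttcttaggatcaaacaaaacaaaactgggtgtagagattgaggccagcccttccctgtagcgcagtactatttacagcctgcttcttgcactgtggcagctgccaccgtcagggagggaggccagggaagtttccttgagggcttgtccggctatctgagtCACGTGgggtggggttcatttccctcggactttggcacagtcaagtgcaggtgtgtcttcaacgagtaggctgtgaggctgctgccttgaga
Fbp1: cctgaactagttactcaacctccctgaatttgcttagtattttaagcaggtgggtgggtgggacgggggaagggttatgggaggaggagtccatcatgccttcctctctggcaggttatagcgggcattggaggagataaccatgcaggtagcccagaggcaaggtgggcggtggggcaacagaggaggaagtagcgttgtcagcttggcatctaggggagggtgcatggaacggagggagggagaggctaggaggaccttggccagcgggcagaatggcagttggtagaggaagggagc
Ldha: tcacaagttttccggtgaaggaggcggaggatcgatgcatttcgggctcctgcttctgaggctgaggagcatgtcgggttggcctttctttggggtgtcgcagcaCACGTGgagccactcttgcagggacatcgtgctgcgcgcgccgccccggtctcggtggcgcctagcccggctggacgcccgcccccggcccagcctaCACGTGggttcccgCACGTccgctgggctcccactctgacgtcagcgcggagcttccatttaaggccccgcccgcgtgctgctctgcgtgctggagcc
Ldhb: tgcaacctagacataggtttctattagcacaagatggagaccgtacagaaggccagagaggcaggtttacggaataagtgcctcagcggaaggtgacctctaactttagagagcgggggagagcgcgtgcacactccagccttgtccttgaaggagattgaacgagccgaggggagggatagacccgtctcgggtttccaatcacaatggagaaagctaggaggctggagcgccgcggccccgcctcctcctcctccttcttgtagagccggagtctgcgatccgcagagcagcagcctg
Pfkfb4: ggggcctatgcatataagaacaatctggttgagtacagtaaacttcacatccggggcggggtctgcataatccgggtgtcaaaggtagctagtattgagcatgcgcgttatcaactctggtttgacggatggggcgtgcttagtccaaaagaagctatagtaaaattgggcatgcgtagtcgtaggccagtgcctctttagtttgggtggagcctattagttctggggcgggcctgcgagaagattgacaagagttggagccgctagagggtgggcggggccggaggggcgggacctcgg

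The Ldha window held 5 matches to ACGTG, with each of its 2 E-boxes counted once on each strand, and 30 CpG dinucleotides. The Ldhb window had 17 CpG dinucleotides and none of these motifs. In the Fbp2 window 1 E-box, giving 2 matches to ACGTG in the same way, lay 42 bases before the start. The Fbp1 and Pfkfb4 windows held none of the letters searched. Over the 57 windows of the 36 genes, 22 (38.6%) held ACGTG, against 19.6% of all 32851 windows. The E-box was in 14.0% of these windows and in 7.15% of all. GTAAACA, a FoxO site, was in 1.75% against 3.65%, and TATAAA, the TATA box, in 7.02% against 13.6%. These are descriptions of letters in a short window and say nothing of binding.

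Shares were computed for 13 steps with more than 1 detected isoenzyme, aldolase not among them. In these steps, the leading gene was the one with the highest mean FPKM over all 8 libraries. By FPKM it led in every library in 11 of the 13, the exceptions being the phosphoenolpyruvate carboxykinase and glucose-6-phosphatase steps. Genes outside the 36 were counted in the sums, and in 1 step such a gene led. Exact two-sided permutation tests of the leading share, cKO against WT, gave 1 raw p under 0.05, and after Benjamini-Hochberg adjustment over the 13 steps the smallest adjusted p was 0.371. The smallest raw p that 4 against 4 can give is 0.0286.

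Glucose is trapped by hexokinases. Hkdc1, a hexokinase family member, held 81.3 ± 1.56% of the hexokinase FPKM in cKO and 84.2 ± 2.66% in WT (SD, n = 4 each). Hkdc1 had 61.4, 36.9, 50.3 and 41.4 FPKM in cKO, against 47.8, 53.9, 56.9 and 43.2 FPKM in WT, with the WT values inside the cKO range. Hk2, the insulin-regulated form of muscle and fat, came second with 9.26 ± 1.46 FPKM in cKO and 7.97 ± 1.40 FPKM in WT. Hk1, the widespread housekeeping form, was 48.8-fold below Hkdc1 over all libraries. Gpi1, which isomerises glucose-6-phosphate, averaged 70.7 ± 15.8 FPKM in cKO and 62.2 ± 4.502 FPKM in WT. Its values were 76.1, 56.1, 90.5 and 59.9 FPKM in cKO, against 60.4, 60.8, 68.9 and 58.9 FPKM in WT.

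Phosphofructokinase is the committed step. The platelet-type Pfkp led with 57.4 ± 7.57% in cKO and 58.6 ± 5.15% in WT. Its level was 25.6, 14.3, 23.4 and 17.1 FPKM in cKO and 20.7, 22.2, 23.1 and 16.9 FPKM in WT. The liver-type Pfkl held 31.0% in cKO and 27.9% in WT, and the muscle-type Pfkm 11.6% in cKO and 13.5% in WT. Pfkm had 3.15, 4.21, 4.502 and 3.82 FPKM in cKO and 4.90, 4.21, 4.52 and 5.36 FPKM in WT. Its span overlaps Senp1 and that of Pfkp overlaps Pitrm1, both on the other strand, and without a stated strand setting those reads cannot be told apart. The same holds for Pfkfb1 with Apex2, Pfkfb2 with Yod1 and Pcx with Lrfn4, and in all 17 of the 37 rows overlap a gene on the other strand.

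Fructose-2,6-bisphosphate, made and removed by bifunctional Pfkfb enzymes, is the strongest activator of phosphofructokinase and an inhibitor of fructose-1,6-bisphosphatase. Pfkfb4 led this family, with 73.2 ± 2.70% in cKO and 66.7 ± 4.47% in WT (exact two-sided permutation p = 0.0571, adjusted p = 0.371). It had 31.4, 20.6, 29.1 and 24.1 FPKM in cKO libraries 1 to 4, against 15.1, 16.3, 23.8 and 15.9 FPKM in WT. The groups overlapped through WT library 3, which lay above cKO library 2. Its log2 fold change was 0.56 ± 0.17 (SE; 95% interval 0.18 to 0.95), with an edgeR p of 0.00773 before and 0.921 after adjustment over all genes. Pfkfb3, the form with high kinase activity, had 7.66, 2.31, 5.16 and 3.84 FPKM in cKO and 3.88, 3.37, 4.75 and 2.33 FPKM in WT. Pfkfb2, the heart form and an Akt substrate, averaged 4.01 ± 0.917 FPKM in cKO and 4.43 ± 0.629 FPKM in WT, with its lowest value, 2.66 FPKM, in cKO library 3. Pfkfb1, the liver form, stayed under 1 FPKM in every library.

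Aldolase splits fructose-1,6-bisphosphate into triose phosphates. Aldoa, the muscle and general form, had 131, 99.9, 180.2 and 113 FPKM in cKO and 147, 139, 135 and 129 FPKM in WT. The second locus of that name stayed between 0.688 and 2.43 FPKM. Aldoc, the brain form, averaged 2.23 ± 0.309 FPKM in cKO and 1.85 ± 0.779 FPKM in WT.

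**Figure D2:**
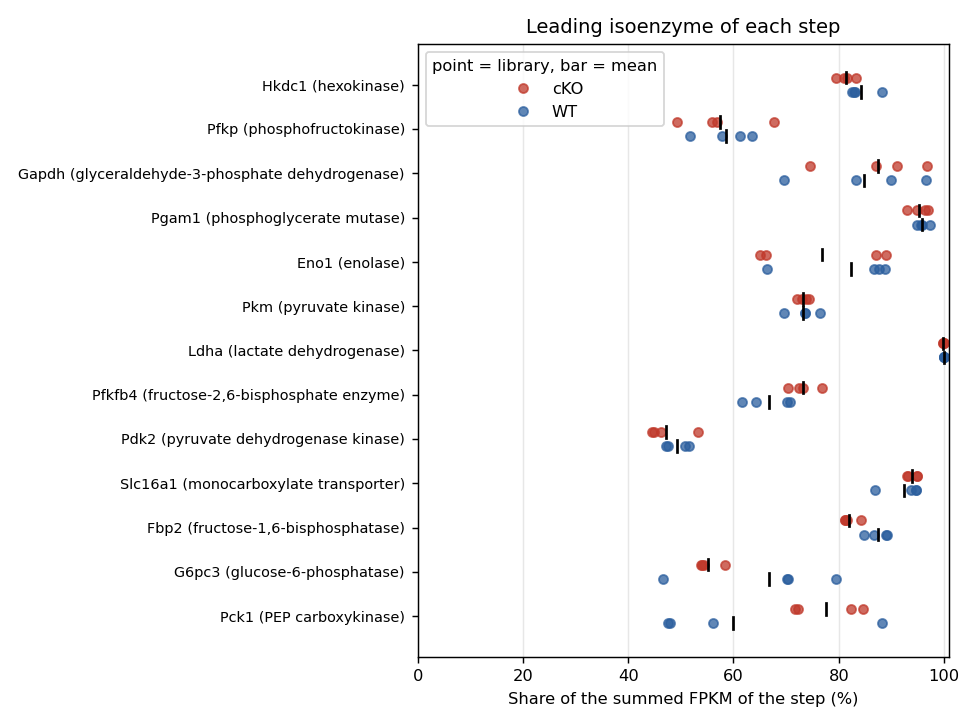
Percent of the summed FPKM of each step held by its leading isoenzyme, with 1 point per library, black bars at the means, and cKO (red) above WT (blue). Fbp2 is the step where the 4 cKO shares, 81.1% to 84.3%, all lie below the 4 WT shares, 84.8% to 89.2%.

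The lower steps of glycolysis were served mostly by single genes. Tpi1, which interconverts the triose phosphates, had 241, 194, 291 and 205 FPKM in cKO and 208, 205, 234 and 205 FPKM in WT. Pgk1, the first ATP-yielding enzyme, had 185, 149, 179.9 and 141 FPKM in cKO and 186, 192, 174 and 169 FPKM in WT. Pgam1, the phosphoglycerate mutase, held 95.3 ± 1.76% of its step in cKO and 95.9 ± 0.987% in WT. It had 138, 116, 74.9 and 113 FPKM in cKO and 141, 129.9, 123 and 129 FPKM in WT, with cKO library 3 lowest. Near-identical copies held few reads beside these genes, 1150 for Tpi1 with 84988 of its own, 437 for Pgk1 and 542 for Pgam1.

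The count of Gapdh, the glyceraldehyde-3-phosphate dehydrogenase often used as a reference transcript, was far below those of its neighbours in the pathway. It had 207, 151, 1094 and 547 reads in cKO libraries 1 to 4 and 1676, 230, 544 and 112 reads in WT libraries 1 to 4, whereas Tpi1 had at least 8861 reads in each. It had 2.93, 2.12, 14.7 and 8.44 FPKM in cKO and 21.3, 3.05, 8.04 and 1.64 FPKM in WT, with an SD in WT, 8.94 FPKM, above the WT mean of 8.496 FPKM. The sperm form Gapdhs averaged 0.618 ± 0.189 FPKM in cKO and 0.746 ± 0.124 FPKM in WT. Among annotated transcripts 76 other genes, 73 of them pseudogenes, matched a Gapdh transcript at 95% identity or more over at least 300 bases. Those 76 held 3139 reads in all, beside 4561 at Gapdh itself. How reads with several matches were counted is not given in the sources used here, and its part in these values was not tested. The log2 fold change of -0.27 ± 0.94 (SE; edgeR adjusted p = 0.970) changed sign without WT library 1, at 0.74, or without cKO library 2, at 0.039.

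**Figure D3:**
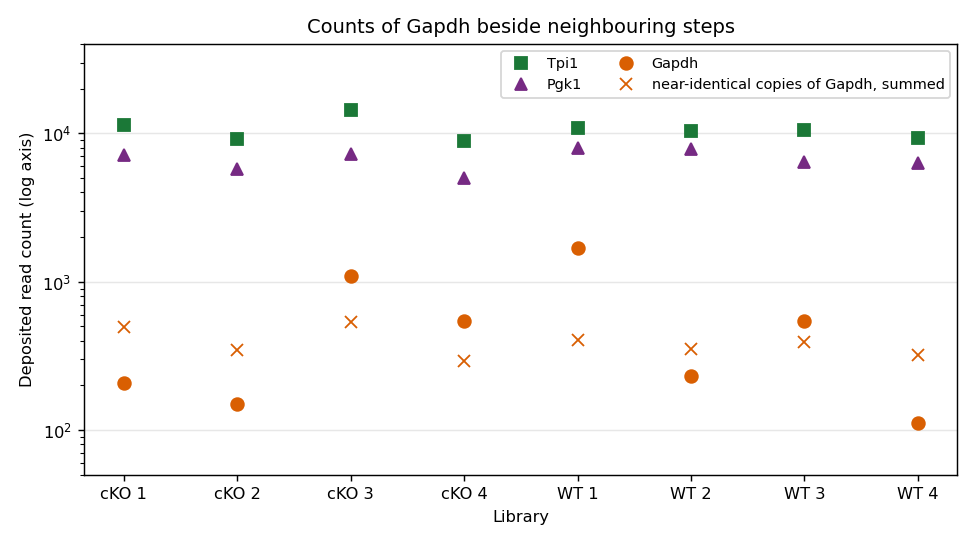
Deposited read counts on a log axis in each library for Gapdh (circles), for the sum of its 76 near-identical copies (crosses), and for Tpi1 and Pgk1. Gapdh lies between 112 and 1676 reads, below Tpi1 and Pgk1 in all 8 libraries.

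A near-identical copy also bears on enolase. Eno1, the general form, had 147, 93.4, 139 and 85.1 FPKM in cKO and 97.2, 103, 132 and 82.4 FPKM in WT. That copy, Eno1b, at 99.5% identity, had 13.6, 10.3, 71.1 and 40.2 FPKM in cKO and 9.04, 11.4, 16.03 and 39.3 FPKM in WT. The Eno1 share was 65.0% and 66.2% in cKO libraries 3 and 4 and 66.3% in WT library 4, and between 86.7% and 89.0% in the other 5. This split crossed the genotypes. Eno3, the muscle form, averaged 3.74 ± 0.553 FPKM in cKO and 3.20 ± 0.727 FPKM in WT.

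Pyruvate kinase makes pyruvate and ATP. Pkm held 73.3 ± 1.03% of it in cKO and 73.3 ± 2.85% in WT, the remainder being Pklr, the liver and red cell form known from enterocytes. Pkm had 211, 153, 222 and 148 FPKM in cKO and 164, 169, 175 and 149.8 FPKM in WT. Counts per gene do not separate its M1 and M2 splice forms. Pklr had 77.6, 52.7, 79.1 and 57.6 FPKM in cKO and 50.3, 60.5, 76.5 and 54.0 FPKM in WT.

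Lactate dehydrogenase was almost wholly Ldha, which had 479, 326, 483 and 337 FPKM in cKO and 395, 426, 422 and 347 FPKM in WT. Ldhb had 16, 17, 7 and 6 reads in cKO and 12, 1, 4 and 4 reads in WT. The carrier Slc16a1 (MCT1), which moves lactate and other monocarboxylates, had 42.1, 41.7, 40.3 and 40.2 FPKM in cKO and 40.0, 45.7, 31.2 and 44.2 FPKM in WT. Of the FPKM summed over Slc16a1, Slc16a3, Slc16a7 and Slc16a8, Slc16a1 held 93.9 ± 1.05% in cKO and 92.5 ± 3.80% in WT. Slc16a3 (MCT4), the carrier of strongly glycolytic cells, averaged 1.83 ± 0.591 FPKM in cKO and 2.08 ± 1.04 FPKM in WT, where library 3 had 3.63 FPKM.

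Pyruvate enters the citrate cycle through pyruvate dehydrogenase. Its E1 subunits were at 77.1 ± 5.48 FPKM for Pdha1 and 36.4 ± 3.26 FPKM for Pdhb in cKO, and at 83.4 ± 3.51 FPKM and 36.8 ± 2.81 FPKM in WT. Of the kinases that switch it off, Pdk2 led with 47.2 ± 4.08% in cKO and 49.3 ± 2.23% in WT, and it had 20.8, 26.9, 35.1 and 29.0 FPKM in cKO and 23.5, 19.7, 33.2 and 27.3 FPKM in WT. Pdk1, the hypoxia-induced form, was at 9.60 ± 0.722 FPKM in cKO and 10.1 ± 0.840 FPKM in WT. In CPM, not scaled by length, Pdk1 lay above Pdk2 in cKO library 1 (73.2 against 66.8) and WT library 2 (78.5 against 63.0). It lay below Pdk2 in the other libraries. Outside the 36, Pdk3 held 16.9% in cKO and 20.3% in WT. Pdk4, the fasting-induced form and a FoxO target, had 7.35, 13.6, 8.98 and 16.1 FPKM in cKO and 6.87, 2.78, 8.59 and 4.82 FPKM in WT. Its log2 fold change was 0.999 ± 0.36 (SE), with an edgeR p of 0.0224 before and 0.921 after adjustment, and the groups overlapped through cKO library 1.

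Among the gluconeogenic enzymes, Fbp1 had the smallest p of the 36 genes. It had 41.5, 34.7, 42.7 and 30.2 FPKM in cKO libraries 1 to 4, against 18.5, 17.9, 30.3 and 25.5 FPKM in WT. The lowest cKO library and the highest WT library were nearly level, and every other cKO library lay above every WT library. The log2 fold change was 0.70 ± 0.18 (SE; 95% interval 0.29 to 1.10), with an edgeR p of 0.00291 before and 0.824 after adjustment over all genes. In every alternative its value stayed between 0.59 and 0.86, with adjusted p from 0.145 to 1. Fbp2, classically the muscle isoenzyme, was the more abundant of the pair, at 179, 153, 183 and 162 FPKM in cKO and 153, 143, 198 and 142 FPKM in WT. Its log2 fold change was 0.09 ± 0.13 (SE), with 0.21 without WT library 3 and 0.041 without WT library 4. The Fbp2 share was 81.1%, 81.5%, 81.1% and 84.3% in cKO and 89.2%, 88.9%, 86.7% and 84.8% in WT. This was the share whose groups did not overlap (difference -5.39 percentage points, exact two-sided permutation p = 0.0286, adjusted p = 0.371).

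G6pc, the catalytic glucose-6-phosphatase of liver and kidney, was below the ubiquitous G6pc3, a gene outside the 36, in all cKO libraries and in WT libraries 1, 2 and 4. G6pc had 17.8, 17.5, 21.3 and 20.6 FPKM in cKO and 5.84, 8.94, 23.7 and 9.59 FPKM in WT. The 4 cKO values were close together, while WT library 3 exceeded them all and the other WT libraries lay well below. By edgeR the cKO over WT log2 change was 0.69 ± 0.38 (SE; adjusted p = 0.921). Without WT library 3 it was 1.25 (adjusted p = 0.106), the smallest adjusted p of any of the 36 genes in any alternative, and with sample quality weights 1.20. G6pc3 had 20.9, 20.9, 29.9 and 24.1 FPKM in cKO and 22.75, 21.2, 20.6 and 22.6 FPKM in WT.

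Pck1, the cytosolic phosphoenolpyruvate carboxykinase, had the largest SE after Gapdh. It had 17.3, 49.1, 26.6 and 50.2 FPKM in cKO and 9.01, 7.73, 51.4 and 11.7 FPKM in WT. WT library 3 was the highest of all 8 and the other WT libraries were the 3 lowest. By edgeR the log2 change was 0.84 ± 0.71 (SE; adjusted p = 0.921), against 1.92 without WT library 3 (adjusted p = 0.371) and 2.05 with quality weights. Its share over the mitochondrial Pck2 was 77.7 ± 6.72% in cKO and 60.0 ± 19.3% in WT. Pck2 averaged 9.21 ± 1.69 FPKM in cKO and 8.58 ± 1.28 FPKM in WT. Pcx, pyruvate carboxylase, which feeds this route with oxaloacetate, averaged 5.17 ± 1.16 FPKM in cKO and 5.75 ± 1.81 FPKM in WT.

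**Figure D4:**
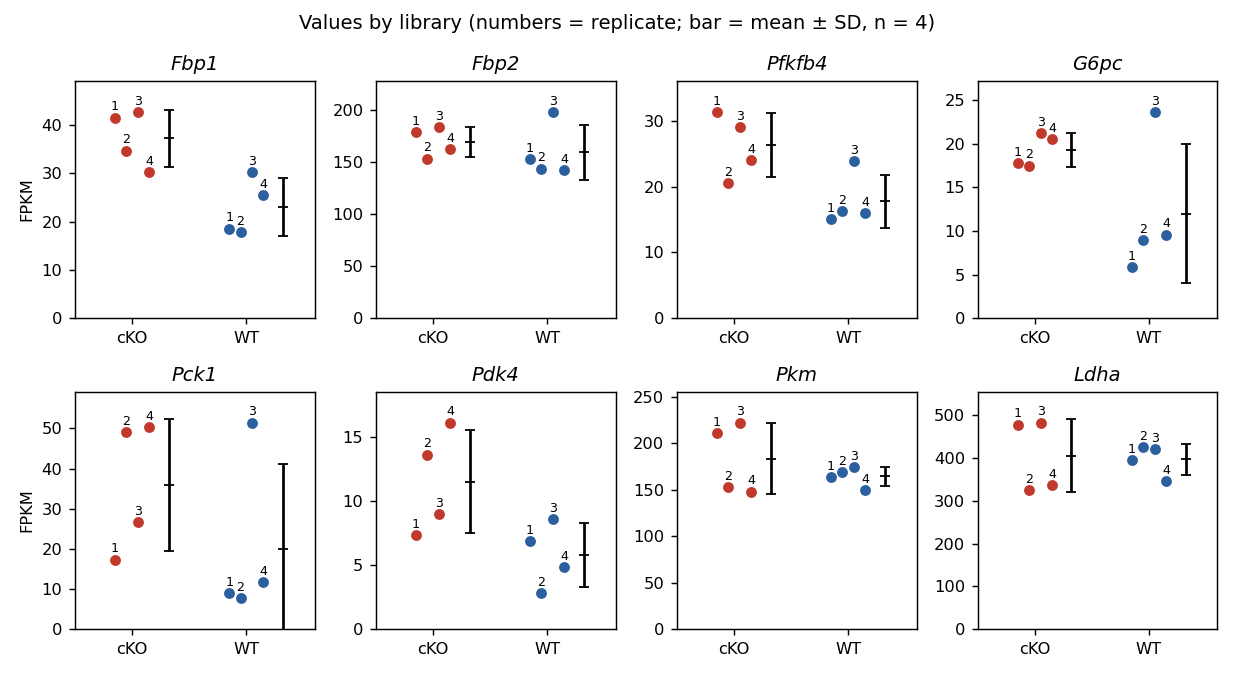
FPKM of 8 genes in each library, cKO left of WT, with replicate numbers beside the points and a bar for mean ± SD (n = 4), which the axis ends at 0 for Pck1 in WT. WT library 3 is the highest WT value for Fbp1, Fbp2, Pfkfb4, G6pc, Pck1, Pdk4 and Pkm.

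The summed level of the 15 enterocyte markers was also highest in WT library 3, at 27710 CPM against 11260 to 13480 CPM in the other WT libraries, and ran from 13100 to 19840 CPM in cKO. Its part in the values of G6pc, Pck1, Fbp1 and Pfkfb4 was not tested. In such bulk samples fewer cells of a type and less RNA per cell cannot be told apart.

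Across the whole set none of the 35 tested rows passed the adjusted threshold of 0.05 in edgeR, where 0.0136% of all 14701 genes passed. The DESeq2 Wald test likewise called none of them. Before adjustment 2 rows, Fbp1 and Pfkfb4, had an edgeR p under 0.05, against 3.9% of all genes tested, and 1.83% with higher values in cKO. The groups overlapped in CPM for every row, while 3.21% of all genes did not overlap, 1.41% with all cKO values higher. Point estimates were above 0 for 21 rows and below 0 for 14, with a median log2 fold change of 0.10. Over all genes 50.5% were above 0 and the median was 0.0022. With sample quality weights the split was 16 against 19 and the median -0.023, and without cKO library 3 the median was 0.017. The median SE of the rows was 0.17.

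**Figure D5:**
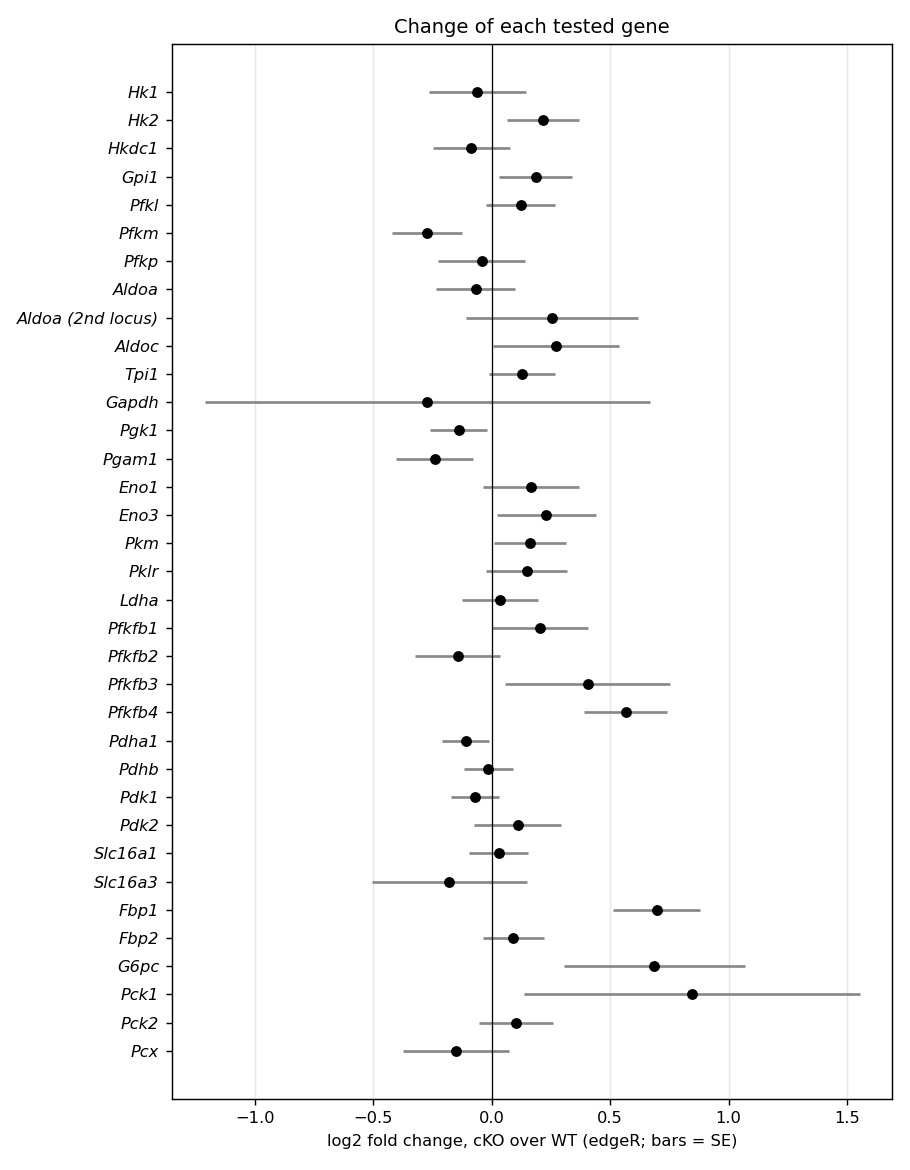
Log2 fold change of cKO over WT with its SE for the 35 tested rows, by edgeR on counts. Pfkfb4 at 0.56, Fbp1 at 0.70, G6pc at 0.69 and Pck1 at 0.84 are the rows beyond 0.5 in either direction, and none passed the adjusted threshold.

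Within cKO many of the 35 rows shared an order of libraries, noticed in their values. Libraries 1 and 3 both lay above libraries 2 and 4 in CPM in 20 rows (57.1%), among them Ldha, Pkm, Eno1 and Gpi1, against 21.5% of all 14701 genes. They lay below them in 2 rows (5.71%), against 21% of all genes. By a chi-square of counts over all genes, libraries 1 and 3 were the least alike of the cKO libraries. Whether the order comes from a division of the libraries was not tested. Of the 13 cell type marker lists, 5 summed higher in CPM in cKO libraries 1 and 3 than in 2 and 4. The 16 T cell and intraepithelial lymphocyte markers had 586 and 801 CPM in libraries 1 and 3, and 257 and 287 CPM in libraries 2 and 4. In WT they were at 244, 372 and 664 CPM in libraries 1, 3 and 4, and lowest in library 2. Of the 15 of these markers tested, 14 had point estimates above 0, with a median SE of 0.49. None of them had an unadjusted edgeR p under 0.05. Enterocyte markers summed to 19840 and 16250 CPM in cKO libraries 1 and 3 and to 13100 and 13830 CPM in libraries 2 and 4. In the same order of libraries, goblet cell markers had 8209 and 7635 CPM against 5881 and 6092 CPM, and macrophage and dendritic cell markers 15.2 and 19.4 CPM against 9.63 and 8.79 CPM. The fibroblast and smooth muscle markers, at most 2.78 CPM in sum, were ordered likewise. Stem and transit amplifying markers summed in the opposite order, with 3832 and 4266 CPM in libraries 1 and 3 and 5135 and 5071 CPM in libraries 2 and 4. Olfm4 was the largest part of that sum, with 2187, 2990, 2477 and 2894 CPM in cKO libraries 1 to 4. Ascl2, Smoc2, Axin2, Pcna, Mcm2, Mcm5 and Stmn1 did not have this order. The part of these cell types in the spread of the glycolytic transcripts was not tested.

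Neighbouring pathways were described by lists chosen with earlier results known. None of the 74 genes tested from the 6 lists passed the adjusted threshold in edgeR. An unadjusted p under 0.05 was found for 4 of the 74, against 3.9% of all genes tested. Groups did not overlap in CPM for 2 of 18 regulators, 1 of 16 genes of pyruvate oxidation and none in the other lists, against 3.21% of all genes. These few genes are described and not read as a result about the lists. Sugar entry genes had point estimates above 0 for 9 of 10, with a median of 0.26. For the pentose phosphate pathway this was 6 of 8 (median 0.048), for glycogen metabolism 3 of 8 (-0.039), and for mitochondrial pyruvate oxidation 3 of 16 (-0.072). It was 9 of 14 for other genes of glycolysis and gluconeogenesis (0.085) and 10 of 18 for their regulators (0.020). Mlxipl, the carbohydrate-sensing factor ChREBP, had 56.6, 62.7, 58.1 and 68.7 FPKM in cKO and 43.7, 46.5, 54.0 and 49.0 FPKM in WT, with no overlap (log2 fold change 0.35 ± 0.11 SE; edgeR p 0.00950 before and 0.921 after adjustment). Myc, an activator of glycolytic genes, did not overlap either, at 34.9 to 42.3 FPKM in cKO and 26.7 to 31.5 FPKM in WT (edgeR p 0.00576 before and 0.921 after adjustment). Slc37a4, which carries glucose-6-phosphate to the phosphatase in the endoplasmic reticulum, had a log2 fold change of 0.47 ± 0.17 (SE; edgeR p 0.0184 before and 0.921 after adjustment). It had 37.3, 29.6, 44.8 and 32.2 FPKM in cKO and 21.9, 22.7, 34.7 and 24.4 FPKM in WT, where library 3 was again highest. Pdpr, a regulator of the phosphatase that switches pyruvate dehydrogenase on, was at 6.23 to 8.65 FPKM in cKO and 8.91 to 9.71 FPKM in WT, without overlap (edgeR p 0.0266 before and 0.921 after adjustment).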

How the data were processed

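The authors deposited whole-number read counts per gene and FPKM values for 8 libraries; per the series' design text, RNA was sequenced on an Illumina NovaSeq instrument and processed with Hisat2, an aligner, and Stringtie, an assembler. Versions, build, counting program, strand setting and the handling of reads with several matches are not stated in the sources used here. Coordinates were identical to GENCODE M21 (GRCm38) for 97.1% of shared identifiers and for 36 of the 37 rows described.

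Counts were tested with edgeR 4.0.16 (quasi-likelihood F-test, robust, TMM factors, default low-count filter, 14701 genes) in R 4.3.3, with Benjamini-Hochberg adjustment over all genes at 0.05. SE is the log2 fold change divided by the square root of F. Isoenzyme shares used the deposited FPKM and exact permutation tests. The shares of 1 further step are not reported here. The replicate count of 4 and depth of 15110451 to 18708335 reads limit precision. Near-identical copies were found with blastn 2.17.0. The fits were tested on simulated data. Alternatives used limma 3.58.1 and DESeq2 1.42.0.

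All 36 genes are named. Values of each library are given for the leading isoenzymes and for genes with an unadjusted p under 0.05 or a log2 fold change of at least 0.5, and for others where they show a pattern. Genes outside the 36 are isoenzymes with at least 5% of their step, and, of each pathway list, at most 3 genes with an unadjusted p under 0.05; Rictor is added as the targeted gene. The members and lists were chosen with earlier results of these data known.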

Additional observations from a re-analysis of the deposited data

Results flagged for a closer look

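In 11 of 100 groups of 4 values, FPKM of a gene or an isoenzyme share, a single library was separated by a wide gap. The cut-off used would flag about 1 in 20 groups of independent, normally distributed values. These groups share libraries, and the shares are made from the same FPKM, so the 11 cannot be set against that rate. Of the 11, 6 were in WT library 3.

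In WT library 3, Pck1 was at 51.4 FPKM against 7.73 to 11.7 FPKM in the other WT libraries, Pfkfb4 at 23.8 FPKM against 15.1 to 16.3 FPKM, Slc16a3 at 3.63 FPKM against 1.49 to 1.68 FPKM, and Tpi1 at 234 FPKM against 205 to 208 FPKM. The Hkdc1 share was 88.1% there against 82.5% to 83.1%, and the Slc16a1 share 86.8% against 93.8% to 94.7%. In WT library 4 the Eno1 share was 66.3% against 86.7% to 88.8%, and in WT library 1 the Ldha share was 99.9%, a little under the other 3.

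In cKO library 3, Pdha1 was at 68.9 FPKM against 79.4 to 80.2 FPKM in the other cKO libraries, and the G6pc3 share was 58.4% against 53.9% to 54.5%. In cKO library 4 the Fbp2 share was 84.3% against 81.1% to 81.5%.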

How the results depend on the processing

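No member passed the threshold under any of 20 alternative fits, and no isoenzyme share under any of 12. The exact permutation test of shares cannot give a raw p below 0.0286 for 4 against 4. After adjustment a share could therefore pass only if many steps reached that floor together. Without both libraries 3 the floor lies above 0.05, so no share could pass there. The result for shares thus says little about their robustness. Over all genes the count of calls was 2, with 10 without a low-count filter, 37 by DESeq2, 8 with quality weights on samples, and 4 when libraries 3 of both groups were left out. It was 0 in limma on FPKM with a minimum of 0.5 and pseudocounts of 0.1 or 1, and ran from 0 to 3 without 1 library. With the replicate number as a block it was 0, and members called were 0. The labels do not say whether the numbers pair the samples, and the correlations do not settle it. Same-numbered libraries correlated from -0.108 to 0.152 and differently numbered ones from -0.195 to 0.148. Of the 4 cKO libraries, 2 matched their own number best.

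Of the 35 rows 18 kept their sign throughout. With quality weights the sign turned for Hk2 (-0.015), Eno1 (-0.023), Pkm (-0.031), Ldha (-0.16) and Slc16a1 (-0.042), and with the block for Gapdh (0.018). Without both libraries 3 it turned for Pfkl (-0.019), Ldha (-0.029), Pfkfb2 (0.033), Slc16a1 (-0.065), Slc16a3 (0.10) and Pck2 (-0.044). With length and GC trends removed, added after seeing the data, it turned for Pfkl (-0.0090), Pfkp (0.033), Ldha (-0.0094), Pdhb (0.026) and Pdk2 (-0.0011).

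Leaving out 1 library gave ranges across 0 for Hk1 (-0.28 to 0.038), Hkdc1 (-0.24 to 0.024), Pfkl (-0.033 to 0.20), Pfkp (-0.18 to 0.096), Aldoa (-0.257 to 0.050, and -0.266 without both libraries 3), Gapdh (-0.93 to 0.74, and -0.952 without both libraries 3), Ldha (-0.059 to 0.13), Pfkfb2 (-0.24 to 0.0094), Pdhb (-0.079 to 0.026), Pdk2 (-0.018 to 0.25), Slc16a1 (-0.075 to 0.094), Slc16a3 (-0.33 to 0.23) and Pcx (-0.30 to 0.074), and Pck2 reached 0.22. The causes were not tested.

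Share differences crossed 0 in the same way for Pfkp (-4.53 to 1.56 percentage points), Gapdh (-2.52 to 6.79), Pgam1 (-1.15 to 0.15), Pkm (-1.24 to 1.07) and Slc16a1 (-0.47 to 2.15). Pdk2 was at 2.53 over the listed genes alone, Pkm at -0.0042 as a log2 ratio, and without both libraries 3 Pfkp was at 0.26, Pkm at -1.39 and Slc16a1 at -0.14.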

Other observations

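Isoenzyme genes of 2 steps are neighbours on the deposited coordinates, which match GRCm38 annotation, with unequal levels. On chromosome 10, Hk1 (62268855 to 62379908) ends just before Hkdc1 (62383137 to 62422491), both on the minus strand, and Hkdc1 was 48.8-fold higher over all libraries. On chromosome 13, Fbp2 (62836877 to 62858422) and Fbp1 (62864753 to 62888282) follow each other on the minus strand, with Fbp2 5.44-fold higher.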
